A study of Mus musculus with 13 samples.

Results

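The 9 genes examined here encode core parts of the Hedgehog pathway and were chosen by name, with earlier results of these data known. They are the ligands Shh and Ihh, the receptor Ptch1, the co-receptor Boc, the ligand-binding inhibitor Hhip, the signal transducer Smo and the transcription factors Gli1, Gli2 and Gli3. All 9 were found among the 55332 genes with values in the count table, and each was followed through 13 mouse NUT carcinoma (mNC) tumors of the oral mucosa and the pancreas, with or without Sox2.

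Hedgehog ligands are secreted proteins that bind the membrane protein Ptch1. Without ligand, Ptch1 holds Smo inactive and the Gli proteins are processed into repressors or kept from the nucleus, whereas ligand binding frees Smo, which signals through the primary cilium and turns Gli2 and Gli3 toward activation. Gli1, Ptch1 and Hhip are themselves induced by the pathway in many cell types, so their transcripts are widely used as its readout, and Ptch1 and Hhip restrain it in turn. In tumors of epithelial origin the ligand often comes from the epithelial cells, while Gli1 is transcribed in the surrounding stroma.

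The tumors fell into 4 groups. Oral Sox2 WT mice were KRT14-Cre; NCT+/- (n = 4 tumors) and pancreatic Sox2 WT mice were Pdx1-Cre; NCT+/- (n = 4). Oral Sox2 KO tumors carried NCT+/- and Sox2fl/fl (n = 2), with a Cre that the sample labels write as KRT4Cre where the study's text names KRT14-Cre. Pancreatic Sox2 KO tumors carried Pdx1-Cre, NCT+/- and a floxed Sox2 written "Sox2fl; fl" (n = 3). The NCT allele, which all groups share, lets Cre set off the translocation that drives NUT carcinoma, a rare event, so that each tumor grows from few cells in which Cre acted. KRT14-Cre acts in basal cells of ectodermal epithelia and Pdx1-Cre in the pancreatic lineage. In the KO groups the same Cre also removes Sox2, while stromal cells lie outside the lineage of either Cre. The ages of the mice were not given in the sources used here. The labels give separate tumors without saying whether they came from separate mice, and the p-values measure the spread between these tumors.

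Depth and makeup of the libraries set limits on every value. Totals were 29394258 to 40420228 estimated counts in oral WT, 11735315 and 20432164 in oral KO, 40964533 to 46134830 in pancreatic WT and 89562790 to 120482829 in pancreatic KO tumors. The protein-coding share of counts was 59.5% for oral KO replicate 1 and between 84.5% and 91.7% elsewhere. Sox2 held 410 to 680 counts in oral WT and 1111 to 1487 in pancreatic WT tumors but at most 2 in any KO tumor as labelled. Basal keratinocyte markers, the cell type this squamous carcinoma resembles, were present in all 13 tumors (8 markers, in CPM, which are counts scaled to the library size). They summed to 4650 to 8461 CPM in oral WT and 4202 to 4946 in oral KO tumors. Pancreatic tumors all lay higher, at 8952 to 16181 CPM in WT and 13383 to 14928 in KO tumors. Skeletal muscle markers (8 genes) summed to 2820 and 5108 CPM in the oral KO tumors, 494 in oral WT replicate 4 and at most 6.81 in the others. Pancreatic acinar markers (8 genes) summed to at most 1.27 CPM in oral, 4.78 to 16.0 in pancreatic WT and 3.97 to 284 in pancreatic KO tumors. Chondrocyte (8 genes, 6.95 to 239 CPM), endothelial (6 genes, 75.8 to 173 CPM) and Schwann cell markers (6 genes, 36.8 to 103 CPM) had ranges that overlapped between oral and pancreatic tumors.

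Most of the difference in these genes lay between tissues. In Sox2 WT tumors, Gli1, Gli2, Gli3 and Boc were higher in oral than in pancreatic tumors, which makes 4 of 9 genes tested (edgeR quasi-likelihood test; a gene is said to be called, here and below, when its Benjamini-Hochberg adjusted p is under 0.05 and its log2 fold change is beyond 1 in either direction). Over all 23164 genes tested in this comparison, 16.5% were called, 9.3% as higher and 7.24% as lower in oral tumors. The median log2 fold change was 1.38 for the 9 genes and 0.00 for all genes. In Sox2 KO tumors, Gli2, Gli3 and Hhip were higher in oral than in pancreatic tumors, 3 of 9 genes, where 25.2% of 24787 genes were called (14.6% as higher and 10.7% as lower). The median log2 fold change of the 9 genes was 0.75, against 0.00 for all genes tested. Protein-coding genes as a whole had a median of -0.28 there, and when they alone were fitted the median of the 9 genes was 1.03. Both comparisons set mice with different Cre drivers side by side, so tissue and driver cannot be told apart. Whether 4 or 3 calls of 9 exceed these shares was not tested. Without oral KO replicate 1, the library with few protein-coding counts, replicate 2 is the only oral KO tumor left. It alone carries the high Hhip value described below, so leaving out replicate 1 cannot show that the KO calls hold.

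Loss of Sox2 moved none of the 9 past the threshold in either tissue. In oral tumors 0 of 8 genes tested were called, Ihh being too low to test, where 11.7% of 22342 genes were called (8.81% higher and 2.89% lower in KO). With protein-coding genes alone in the fit, 27 of 16352 genes were called, 0 of them among the 8. With edgeR 1 of the 8 (Hhip) had an unadjusted p under 0.05, where 7913 of 22342 genes did. DESeq2 called 0 of the 8, giving no adjusted p for Hhip, where it called 4004 of 22342 genes. The median of the 8 genes was -0.39, where all genes had a median of 0.00 and protein-coding genes one of -0.21, and with protein-coding genes alone in the fit it was -0.20. In pancreatic tumors 0 of 9 were called, where 0.629% of 24653 genes were called (0.337% higher and 0.292% lower in KO). With edgeR 1 of the 9 (Gli1) had an unadjusted p under 0.05, where 3916 of 24653 genes did. DESeq2 called that gene, where it called 1115 of 24653 genes. A difference between the tissues in the effect of Sox2 loss was called by edgeR for 0 of 9 genes, where 12.3% of 25836 genes were called (7.41% positive and 4.85% negative). Of the 9, 0 had an unadjusted p under 0.05, where 8776 of 25836 genes did. DESeq2 called 0 of the 9, where it called 4748 of 25836 genes.

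**Figure D1:**
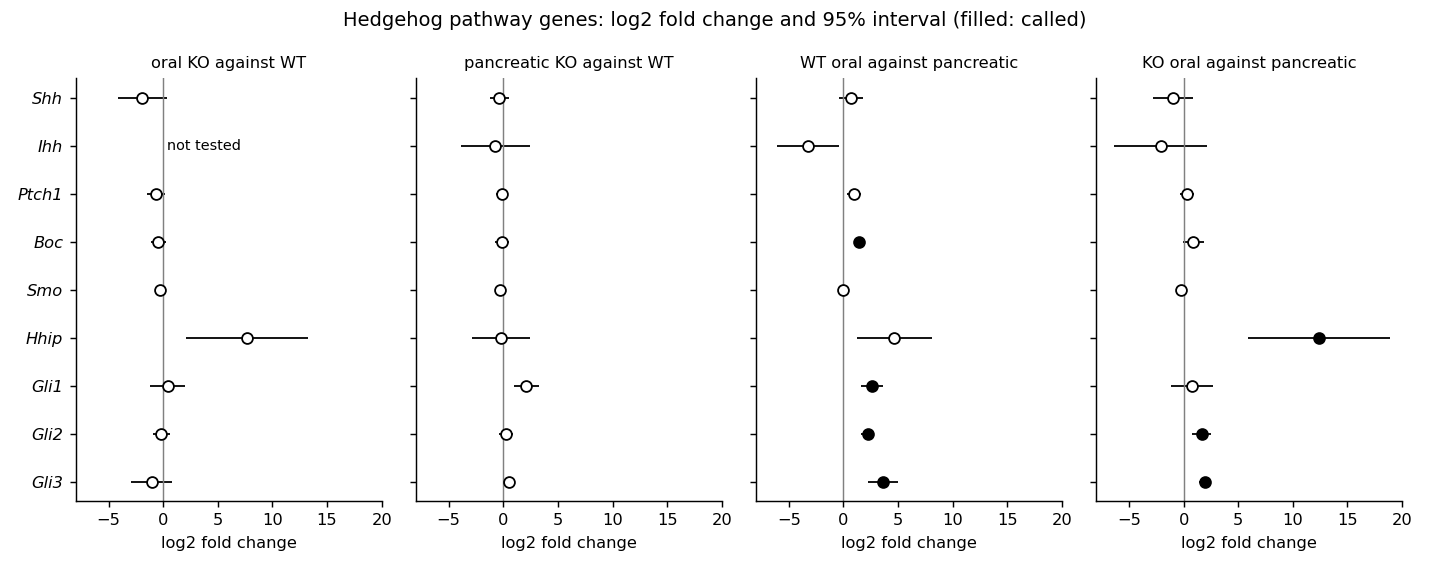
Log2 fold change of each of the 9 genes in 4 comparisons, with the 95% interval as a horizontal line and filled points for called genes. Gli1, Gli2, Gli3 and Boc are filled between oral and pancreatic WT tumors, Gli2, Gli3 and Hhip between the KO tumors, and no point is filled between KO and WT; the Hhip points carry the widest intervals wherever oral KO tumors enter.

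Ligand transcripts were scarce. Shh (5:28456815-28467256, minus strand, GRCm38), the ligand of skin appendages, gut and many embryonic organs, was at 0.29, 0.25, 0.16 and 0.69 CPM in oral WT replicates 1 to 4, from 5 to 30 counts. In oral KO tumors it was at 0.099 and 0.078 CPM, which is 1 and 2 counts, below every oral WT tumor. The fitted log2 fold change of KO against WT was -1.91 ± 0.96 (SE, edgeR adjusted p = 0.195) and was not called. A floor of 3 counts per library averaged 0.21 CPM over the oral KO tumors. The oral WT mean was 1.67 times that floor, but oral WT replicate 3 (0.16 CPM) lay below it, so it sets no minimum fold. Pancreatic WT tumors had 0.24, 0.17, 0.18 and 0.27 CPM and pancreatic KO tumors 0.22, 0.12 and 0.16 CPM, so those groups overlapped. Neither tissue comparison was called (log2 fold change 0.70, adjusted p = 0.357 in WT; -1.01, adjusted p = 0.327 in KO). Of the 31-base sequences of Shh transcripts, 25.5% also occur, on one strand or the other, in other genes, mostly 9530036O11Rik, which overlaps Shh on the opposite strand and held 86 counts over all tumors.

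Ihh (1:74945315-74951672, minus strand), the ligand best known from growing cartilage and gut, was uneven. No oral tumor held more than 4 counts, the WT tumors 0 to 4 and the KO tumors 2 and 1. Among pancreatic WT tumors it stood at 1.94 CPM in replicate 1, 0 in replicate 2, 0.39 in replicate 3 and 0.27 in replicate 4. Pancreatic KO tumors had 0.74, 0.41 and 0.017 CPM. The pancreatic groups thus overlapped widely, with 0 or near 0 in a tumor of each. The oral tumors lay low, and the WT tissue difference, -3.28 ± 1.24 on the log2 scale, was not called (edgeR, adjusted p = 0.0901). It was called with DESeq2 (adjusted p = 0.0318) and without pancreatic WT replicate 2 (-3.68, adjusted p = 0.0281).

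The remaining Hedgehog ligand, Dhh, known from Schwann cells and testis, was not among the 9 but belongs to a fixed list of 47 other pathway genes used for comparison. Per kilobase of merged exons, Dhh was the highest of Shh, Ihh and Dhh in 12 of 13 tumors, with Ihh highest in pancreatic WT replicate 1. Dhh was at 4.83, 0.99, 5.61 and 4.37 CPM in oral WT, 3.28 and 4.22 in oral KO, 1.99, 10.02, 2.58 and 8.45 in pancreatic WT and 13.04, 17.1 and 15.8 in pancreatic KO tumors. All 3 pancreatic KO tumors lay above all pancreatic WT tumors, but the change of 1.42 ± 0.56 was not called (adjusted p = 0.275). Between KO tumors Dhh was lower in oral than in pancreatic tumors (-2.08 ± 0.30, edgeR adjusted p = 0.00875). The interaction of tissue and Sox2 for Dhh was -1.48 ± 0.93 (adjusted p = 0.281). In the fit of all 13 tumors together the KO tissue difference was -2.02 and was no longer called (adjusted p = 0.0580).

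**Figure D2:**
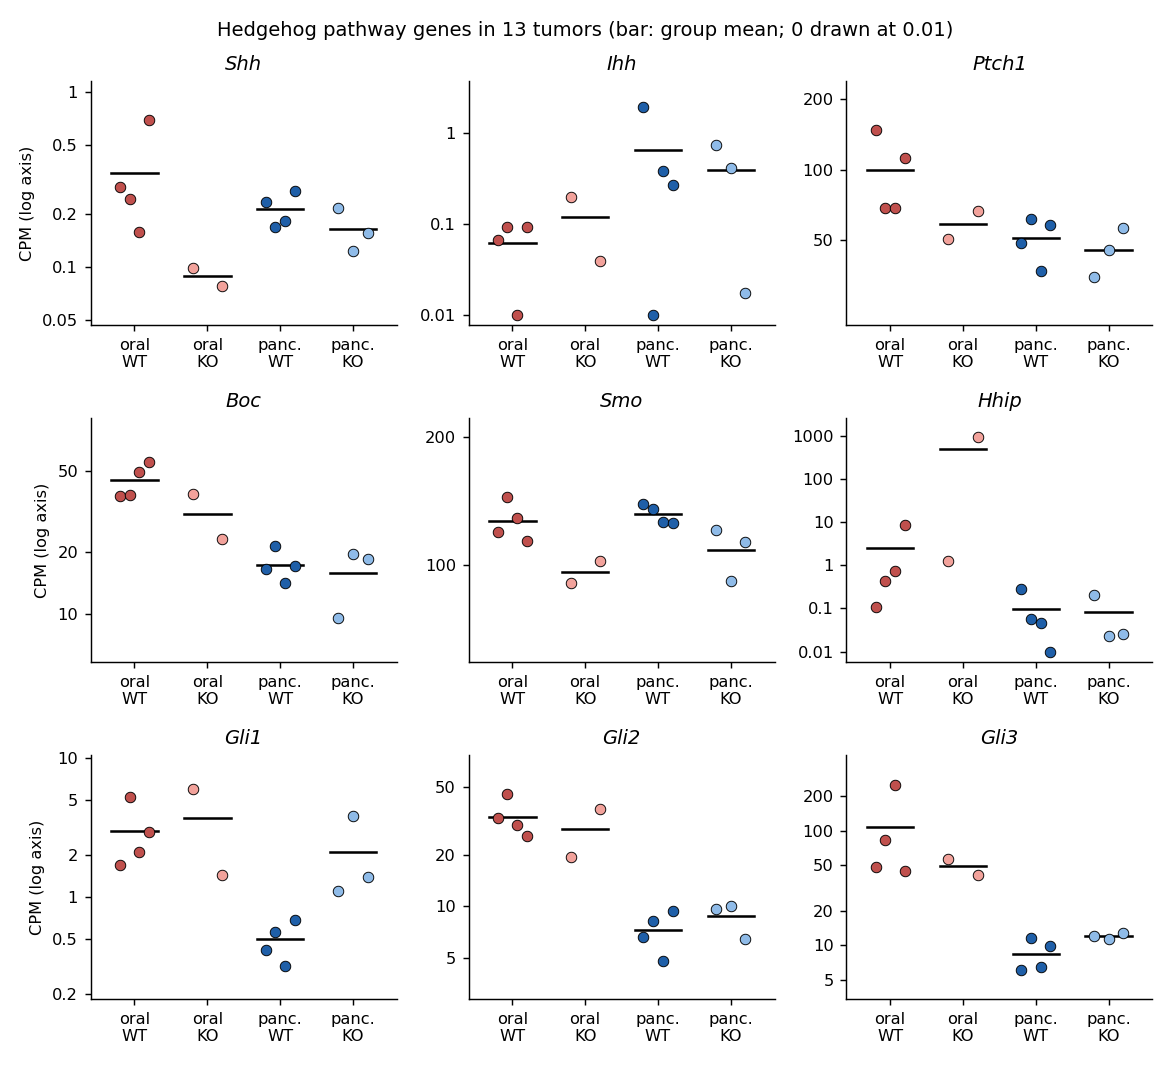
CPM of the 9 genes in each of 13 tumors, on log axes that differ between panels, with a bar at the group mean and zeros drawn at 0.01. Gli2, Gli3 and Boc of the oral WT tumors sit above all pancreatic tumors, Smo stays between 90.7 and 144 CPM in every tumor, and a single oral KO tumor reaches 982 CPM of Hhip.

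Ptch1 (13:63508328-63573598, minus strand), the ligand receptor and a target of the pathway, was at 148, 68.9, 68.4 and 112 CPM in oral WT and 50.5 and 66.5 in oral KO tumors. Both oral KO tumors lay below all oral WT tumors, the nearest values being 66.5 and 68.4, and the change of -0.69 ± 0.36 was not called (edgeR, adjusted p = 0.209). Its 95% interval ran from -1.52 to 0.15. Pancreatic WT tumors had 48.5, 61.4, 36.9 and 58.1 CPM and pancreatic KO tumors 35.0, 45.4 and 56.5, which overlap. Every oral WT tumor exceeded every pancreatic WT tumor, and the log2 difference of 0.96 ± 0.28 passed the adjusted p (0.0363) but lay just under the fold threshold. Without oral WT replicate 2 it was 1.10 (adjusted p = 0.0308) and without replicate 3 also 1.10 (adjusted p = 0.0282), and Ptch1 was then called. In KO tumors the difference was 0.30 ± 0.25 (adjusted p = 0.379).

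Boc (16:44485049-44558897, minus strand), a cell-surface co-receptor that helps present ligand to Ptch1, was higher in oral than in pancreatic WT tumors by 1.38 ± 0.18 (adjusted p = 0.00165). Its levels were 37.4, 37.9, 49.4 and 55.1 CPM in oral WT against 16.6, 21.5, 14.2 and 17.1 CPM in pancreatic WT tumors, with no overlap. Oral KO tumors had 38.5 and 23.2 CPM and pancreatic KO tumors 9.49, 19.6 and 18.5, again without overlap, but the smaller groups gave 0.90 ± 0.39 (adjusted p = 0.121). Boc was not called between KO and WT in oral (-0.46 ± 0.30, adjusted p = 0.295) or pancreatic tumors (-0.12 ± 0.27, adjusted p = 0.877).

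Smo (6:29735503-29761365, plus strand), the membrane protein that carries the signal inward, varied little between tumors. It ranged from 114 to 144 CPM in oral WT, 90.7 to 102 in oral KO, 125 to 139 in pancreatic WT and 91.9 to 121 in pancreatic KO tumors. WT tumors of the tissues overlapped, with a log2 difference of -0.05 (95% interval -0.30 to 0.20). In both tissues all KO tumors lay below all WT tumors, by -0.32 ± 0.17 in oral (edgeR, adjusted p = 0.233) and -0.27 ± 0.12 in pancreatic tumors (adjusted p = 0.331), neither of which was called. The intervals were -0.72 to 0.09 and -0.54 to 0.01. The share of all genes without overlap was not counted. In the oral comparison protein-coding genes as a whole had a median of -0.21, and over the alternatives the Smo change lay between -0.40 and -0.12. The KO tissue difference of -0.23 (adjusted p = 0.347) turned to 0.05 when protein-coding genes alone were fitted.

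Of the 4 genes called between WT tumors, 3 were Gli factors. Gli2 (1:118834132-119053619, minus strand), the main activator, was at 32.8, 45.5, 29.7 and 25.7 CPM in oral WT and at 6.64, 8.26, 4.81 and 9.39 in pancreatic WT tumors. The groups lay well apart, by 2.20 ± 0.26 on the log2 scale (adjusted p = 0.00104). Oral KO tumors had 19.6 and 37.1 CPM and pancreatic KO tumors 9.70, 10.1 and 6.49, a difference of 1.64 ± 0.35 (adjusted p = 0.0191). That call was lost without oral KO replicate 2 (1.14, adjusted p = 0.0822). Gli2 overlapped between KO and WT in both tissues (oral -0.16, adjusted p = 0.741, 95% interval -0.91 to 0.58; pancreatic 0.27, adjusted p = 0.680, 95% interval -0.36 to 0.91).

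Gli3 (13:15463235-15730026, plus strand), the main repressor, gave the largest difference of the 4 genes called between WT tumors. Oral WT tumors had 48.0, 83.2, 251 and 44.6 CPM and pancreatic WT tumors 6.06, 11.4, 6.45 and 9.81, a log2 difference of 3.66 ± 0.60 (adjusted p = 0.00415). Oral WT replicate 3 stood far above the other oral tumors, and without it the difference was 2.80 and still called. Oral KO tumors stood at 56.5 and 41.2 CPM and pancreatic KO tumors at 12.1, 11.4 and 12.8, a difference of 1.96 ± 0.22 (adjusted p = 0.00617). The change with Sox2 loss was -1.06 ± 0.79 in oral (adjusted p = 0.368) and 0.53 ± 0.25 in pancreatic tumors (adjusted p = 0.358), and the interaction was -1.65 ± 0.80 (adjusted p = 0.169).

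Gli1 (10:127329882-127341974, minus strand), an activator and the usual readout gene of the pathway, was low throughout. Oral WT tumors had 1.70, 5.23, 2.12 and 2.94 CPM and pancreatic WT tumors 0.42, 0.57, 0.32 and 0.69, from 14 to 28 counts. The groups did not overlap, and the log2 difference was 2.58 ± 0.44 (adjusted p = 0.00422). Pancreatic KO tumors had 1.11, 3.84 and 1.404 CPM, all above every pancreatic WT tumor. The change was 2.09 ± 0.50 with a 95% interval of 0.94 to 3.24, yet it was not called with edgeR (adjusted p = 0.102), while DESeq2 gave 2.09 and called it (adjusted p = 0.00329). Over the alternatives run for it, the log2 change lay between 1.35 and 2.41 and the adjusted p between 0.00329 and 0.232. Oral KO tumors had 6.06 and 1.44 CPM, on both sides of the oral WT tumors (0.40 ± 0.68, adjusted p = 0.699). The interaction was -1.78 ± 0.90 (adjusted p = 0.183), so a difference between tissues in the response of Gli1 was not called.

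The 4 calls of the WT tissue comparison (Gli1, Gli2, Gli3 and Boc) were made under all 17 alternatives run for each. Markers of other cell types moved with them. The 8 fibroblast markers (Col1a1, Col1a2, Col3a1, Pdgfra, Pdgfrb, Dcn, Lum and Thy1) summed to 8737 to 19126 CPM in oral WT and 1163 to 2261 in pancreatic WT tumors, and 7 of 8 were called as higher in oral tumors, all but Thy1. Summed fibroblast markers were 9423 and 9520 CPM in oral KO and 2168 to 3779 in pancreatic KO tumors, a difference carried by the 3 collagens, the only markers of the 8 called as higher. Dcn had a mean of 79.9 CPM in oral KO and 70.1 in pancreatic KO tumors and was not called, and Thy1, at 20.5 against 64.0 CPM, was called as lower in oral KO tumors. The 7 osteoblast markers summed to 287 to 603 CPM in oral WT and 99.1 to 158 in pancreatic WT tumors, with 5 of 7 called as higher in oral tumors. Basal keratinocyte markers mostly went the other way. Of these 8, 4 were called as lower and 1 as higher in oral than in pancreatic WT tumors. Between KO tumors 5 were called as lower and 0 as higher in oral tumors. Among oral WT tumors, replicate 2 had the highest fibroblast sum (19126 CPM) and the highest Gli1 and Gli2, while Gli3 peaked in replicate 3 and Boc in replicate 4, at fibroblast sums of 9101 and 8737 CPM. Among pancreatic tumors, KO replicate 2 had both the highest fibroblast sum (3779 CPM) and the highest Gli1 (3.84 CPM). It also had the highest chondrocyte sum (239 CPM, against at most 69.3 in the other pancreatic tumors) and endothelial sum (173 CPM). Its sums for the remaining marker lists were not the highest. The part of these cells in the differences was not tested. In bulk tumors, fewer cells of a type and less RNA per cell cannot be told apart.

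**Figure D3:**
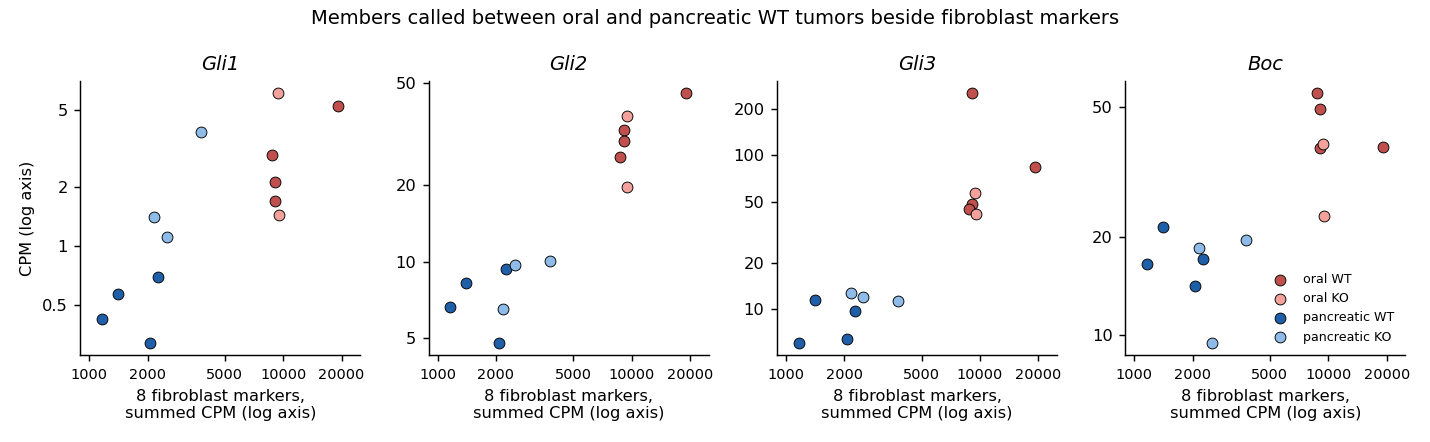
CPM of Gli1, Gli2, Gli3 and Boc against the summed CPM of 8 fibroblast markers, 1 point per tumor, both axes logarithmic. The 6 oral tumors sit at 8737 CPM of fibroblast markers or more and the 7 pancreatic tumors at 3779 or less, and Gli2, Gli3 and Boc of every oral tumor lie above those of every pancreatic tumor.

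Promoter sequence was at hand for 6 of the 9 genes (Ihh, Ptch1, Smo, Gli2, Gli3 and Hhip). The 250 bases before the RefSeq start are given for Gli2 and Gli3, which differed between tissues in both genotypes, and for Hhip, which stood out in a single tumor. The sequences come from RefSeq (GRCm38.p6), whose Gli3 start lies inside the GENCODE span of Gli3 given above, and are written along the gene, 5′ to 3′, with capitals for the core of the Gli consensus motif, ACCACCC on either strand.
Gli2, 1:119053620-119053869, minus strand: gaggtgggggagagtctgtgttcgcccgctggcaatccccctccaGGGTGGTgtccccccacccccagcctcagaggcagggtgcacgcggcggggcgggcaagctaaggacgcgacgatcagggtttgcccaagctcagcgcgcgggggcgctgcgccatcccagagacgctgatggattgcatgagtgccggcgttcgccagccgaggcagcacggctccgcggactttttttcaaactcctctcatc
Gli3, 13:15463473-15463722, plus strand: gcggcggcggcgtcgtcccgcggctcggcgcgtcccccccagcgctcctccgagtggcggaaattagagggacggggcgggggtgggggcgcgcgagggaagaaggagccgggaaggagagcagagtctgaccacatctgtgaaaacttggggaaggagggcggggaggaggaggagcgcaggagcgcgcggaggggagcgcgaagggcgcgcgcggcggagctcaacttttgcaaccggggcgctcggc
Hhip, 8:80058009-80058258, minus strand: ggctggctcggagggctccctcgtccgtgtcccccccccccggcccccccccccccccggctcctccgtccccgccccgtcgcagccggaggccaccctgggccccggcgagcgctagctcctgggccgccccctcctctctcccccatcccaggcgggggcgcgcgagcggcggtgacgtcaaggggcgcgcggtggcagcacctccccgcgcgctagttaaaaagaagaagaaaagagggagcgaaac
The longer motif GACCACCCA was sought on both strands in the 300 bases around each start and was found in 0 of the 6 promoters, against 0.253% of 32851 promoters of the same length. The core ACCACCC, which lies within the longer motif, was found in Gli2 alone, on the opposite strand to the gene and beginning 205 bases before its start. It occurs in 4.61% of all promoters. GC content was 67.2% for Gli2, 72.8% for Gli3 and 76.0% for Hhip against a median of 52.4%, and the stretches held 22, 34 and 28 CpG dinucleotides against a median of 6. These letters describe the sequence and do not show binding.

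Hhip (8:79965851-80058006, minus strand), a membrane-anchored protein that binds the ligands and blunts the signal, was almost silent outside the oral tumors. Pancreatic WT tumors had 0.29, 0.057, 0.046 and 0 CPM and pancreatic KO tumors 0.20, 0.022 and 0.026. Oral WT tumors had 0.11, 0.43, 0.76 and 8.62 CPM. Oral KO replicate 1 had 1.29 CPM from 13 counts, and oral KO replicate 2 had 982 CPM from 25156 counts.

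That single tumor carried 114 times the CPM of the next highest tumor, oral WT replicate 4. By CPM, Hhip ranked 31 among 21897 protein-coding genes there, above all other pathway genes. The other oral KO tumor lay within the range of the oral WT tumors. The log2 fold change of oral KO against WT was 7.66 ± 2.32 and was not called (edgeR, adjusted p = 0.0706), and without oral KO replicate 2 it turned to -0.83 (adjusted p = 0.845). In the fit of all 13 tumors it was 7.61 and called (adjusted p = 0.0108). Called under 7 of 13 alternatives, the KO tissue difference, 12.39 ± 2.65 (adjusted p = 0.0210), fell to 3.88 and was not called without this tumor (adjusted p = 0.0986). That call was also lost without pancreatic KO replicate 1 (14.17, adjusted p = 0.0547), replicate 2 (11.998, adjusted p = 0.0759) or replicate 3 (11.96, adjusted p = 0.0677). In WT tumors the difference was 4.65 ± 1.51 and was not called (adjusted p = 0.0562), although it was with DESeq2 (4.68, adjusted p = 0.00121) and without oral WT replicate 1 (5.05, adjusted p = 0.0353). The 3 tumors with the most Hhip (oral KO replicate 2, oral WT replicate 4 and oral KO replicate 1) were also the 3 with the most RNA of skeletal muscle markers, which summed to 2820, 494 and 5108 CPM there and to at most 6.81 in the others. Their part in the Hhip values was not tested. In oral KO replicate 2, Gli1 (1.44 CPM) and Ptch1 (66.5 CPM), the other target genes among the 9, were below every oral WT tumor.

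Genes around Hhip were looked at after its value was seen. Of 36 annotated genes that start within 1000 kb of the Hhip start, 23 had at least 10 counts in a tumor, and 10 of these were highest in oral KO replicate 2. This tumor exceeded each of the other 12 by more than 10-fold for Hhip itself, the lincRNA Gm45430 (10 counts against 0 in the others) and Frem3, an extracellular matrix protein. Frem3 starts 553 kb upstream of Hhip and had 14.3 CPM against at most 0.506. Smarca5, 681 kb upstream, was at 282 CPM against at most 266 elsewhere. On the downstream side, Anapc10 had 21.3 against at most 17.1 CPM and Abce1 193 against at most 267. Over the genome, 23 of 13078 genes with at least 100 counts in oral KO replicate 2 exceeded every other tumor by more than 10-fold, Hhip and Frem3 among them. By the same measure, oral WT replicate 4 had 28 such genes, oral KO replicate 1 had 22 and pancreatic KO replicate 3 had 24.

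**Figure D4:**
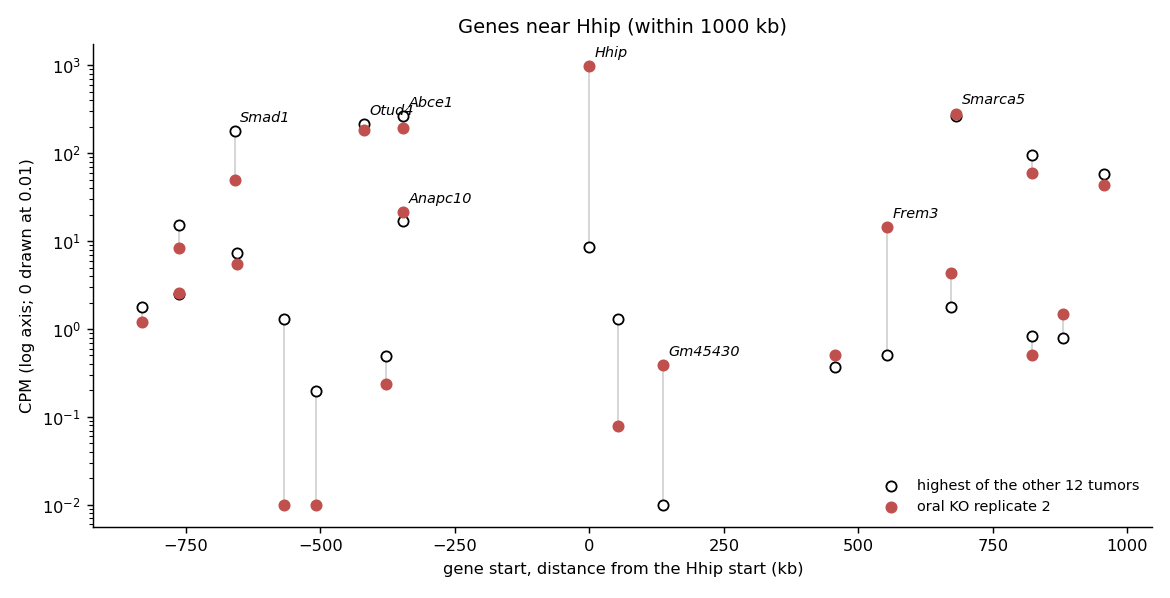
CPM of genes near Hhip (within 1000 kb), placed by the distance of their start from the Hhip start in kb (positive values lie upstream of Hhip), for oral KO replicate 2 (filled) and the highest of the other 12 tumors (open), with zeros drawn at 0.01 on the log axis. Hhip and Frem3 are far higher in oral KO replicate 2, while Smarca5 and Anapc10 are close to the highest other tumor.

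Compared per kilobase of merged exons, which allows genes of different length to be set side by side, Smo had the highest level of the 9 in oral WT (22.5 ± 2.36 CPM per kb, mean ± SD, n = 4), pancreatic WT (23.4 ± 1.24, n = 4) and pancreatic KO tumors (19.3 ± 2.66, n = 3). In oral KO tumors the mean of Hhip (54.2 ± 76.4 CPM per kb, n = 2) exceeded that of Smo (17.2 ± 1.43), through replicate 2 alone. Behind Smo in oral WT came Gli3 (11.1 ± 10.2), Boc (10.1 ± 1.97), Ptch1 (7.01 ± 2.71) and Gli2 (4.87 ± 1.24), neighbours that do not differ beyond their spread. In pancreatic WT the order was Boc (3.89 ± 0.69), Ptch1 (3.61 ± 0.78), Gli2 (1.06 ± 0.29) and Gli3 (0.88 ± 0.27), where Boc and Ptch1, and likewise Gli2 and Gli3, lay within each other's spread. Gli1 reached 0.60 ± 0.32 in oral WT and 0.10 ± 0.03 in pancreatic WT tumors. Shh stayed at or below 0.12 ± 0.08 CPM per kb in every group. With the mean transcript length in place of merged exons, Smo kept the first place in the same 3 groups, but Ptch1 moved from rank 4 to 3 and Boc from 3 to 5 in oral WT. In pancreatic WT, Ptch1 moved from rank 3 to 2 (13.3 ± 2.85), Gli2 from 4 to 3 (4.64 ± 1.27) and Boc from 2 to 4 (3.89 ± 0.69). Boc and Ptch1, and likewise Gli2 and Gli3 (2.49 ± 0.77), then no longer lay within each other's spread.

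**Figure D5:**
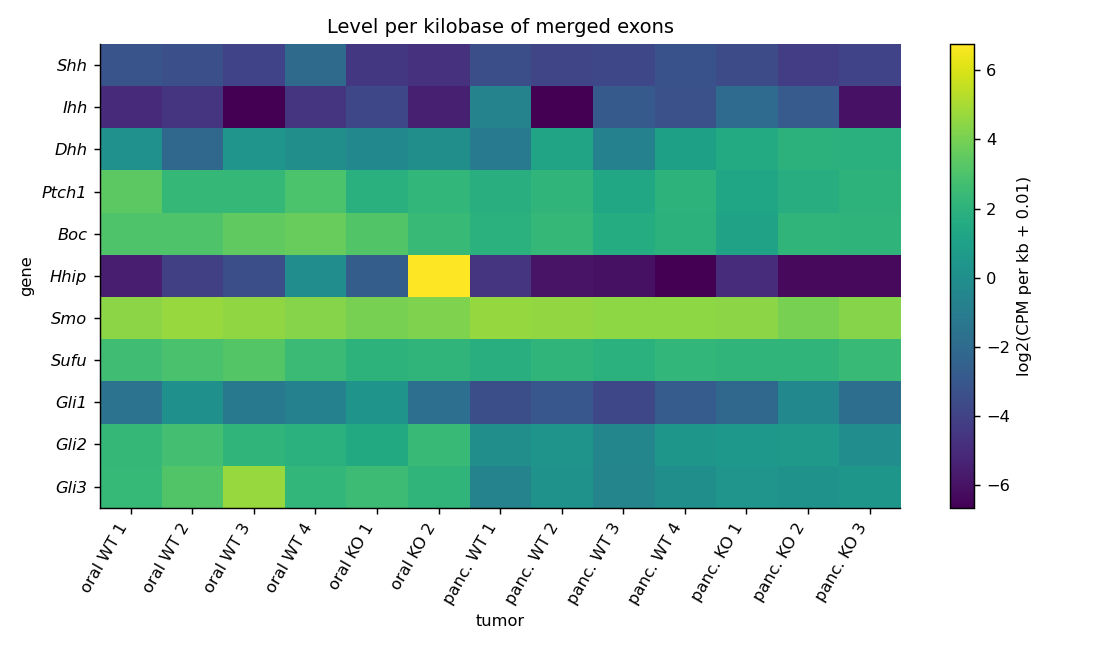
Heat map of log2(CPM per kb of merged exons + 0.01) for the 9 genes examined and for Dhh and Sufu, in each of 13 tumors. The row of Smo is bright throughout, and Gli2 and Gli3 are darker in the pancreatic columns. Gli1 is darker in the pancreatic WT columns but overlaps between the KO columns, and Hhip is brightest in oral KO replicate 2.

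Of the 47 other pathway genes, 11 were higher and 1 lower in oral than in pancreatic WT tumors (47 tested), where 16.5% of all genes were called, with a median log2 fold change of 0.50. Among genes that act on ligand, Gpc3, a glypican that competes with Ptch1 for ligand, was higher by 5.42 ± 0.55, Scube3 by 3.61 ± 0.44 and Scube2 by 4.72 ± 0.73, the Scube proteins being secreted factors that help release ligand. Of the signal transduction genes, Evc (2.05 ± 0.39) and Evc2 (2.21 ± 0.33), which work with Smo at the base of the cilium, and Gpr161 (1.60 ± 0.24), a ciliary receptor that opposes the pathway, were higher. Sufu, which binds and restrains the Gli proteins, passed the adjusted p (0.0113) at 0.81 ± 0.18, under the fold threshold. Dync2h1, the motor of retrograde transport in the cilium, was higher by 1.03 ± 0.14, and 6 of the 7 cilium genes were not called. Thinning the counts (0.996) or leaving out pancreatic WT replicate 1 (0.95) took Dync2h1 below the fold threshold. Foxa2, a target of Shh in the floor plate and a factor of the gut endoderm, was lower in oral tumors, at 0 CPM in 3 and 0.023 in 1 of 4 oral WT tumors against 0.51 to 4.09 in pancreatic WT tumors, at least 26.0-fold against a floor of 3 counts per library. Other calls, higher in oral tumors, were Scube1 (1.88) and the forkhead genes Foxf1 (1.71) and Foxf2 (1.91), which were called under 10 (Scube1) and 11 (Foxf1 and Foxf2) of 17 alternatives.

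In KO tumors 5 of 46 other pathway genes were higher and 5 lower in oral than in pancreatic tumors, a share below the 25.2% of all genes called, with a median of 0.10 (0.38 with protein-coding genes alone). Scube3 (3.35 ± 0.48), Gpc3 (3.29 ± 0.74) and Dync2h1 (1.49 ± 0.19) were higher, as was the endocytic receptor Lrp2 (1.46). Foxa2 was lower, at 0 in both oral KO tumors and 0.52 to 4.36 CPM in pancreatic KO tumors, which is at least 14.0-fold. Prkaca (-1.32 ± 0.18) and Prkar1a (-1.04 ± 0.18), the catalytic and a regulatory subunit of protein kinase A, which primes the Gli proteins for processing, were lower, as were Dhh and the cell cycle gene Ccnd1 (-1.32). Without oral KO replicate 2 the adjusted p of Gpc3 was 0.107 and that of Foxa2 0.113, and without pancreatic KO replicate 2 they were 0.0603 and 0.0716. Over 14 alternatives Prkar1a was called in 8, Ccnd1 in 7 and Lrp2 in 6.

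With Sox2 loss in oral tumors, Prkaca fell by 1.02 (SE 0.19, edgeR adjusted p = 0.0243) and Ccnd1 fell by 1.42 (SE 0.38, adjusted p = 0.0493), 2 of 45 genes tested. Over all 22342 genes tested there, 11.7% were called (8.81% higher and 2.89% lower in KO), so the 2 calls were no excess. With protein-coding genes alone in the fit, 27 of 16352 genes were called and neither of these 2. Prkaca was at 109, 113, 122 and 107 CPM in oral WT and 45.0 and 60.8 in oral KO tumors, and Ccnd1 at 173, 121, 213 and 88.9 against 47.1 and 59.1. No tumor overlapped between the groups for either gene, but both lost the call when any of oral WT replicates 1, 2 or 3 or either oral KO tumor was left out, and with protein-coding genes alone (-0.82 and -1.22). Oral KO replicate 1, whose counts were only 59.5% protein-coding, was the lowest tumor for both. The median of the 45 genes was -0.27, near the -0.21 of all protein-coding genes, and it was -0.08 when protein-coding genes alone were fitted. Sufu (-0.69, edgeR adjusted p = 0.0976) was not called.

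In pancreatic tumors edgeR called 0 of the 47 other pathway genes with Sox2 loss, where it called 0.629% of all genes. DESeq2 called 2 of the 47, where it called 1115 of 24653 genes, a similar share. The median was 0.18 for the 47 genes and 0.02 for all genes. Mycn, at 0.34, 0.54, 0.34 and 0.84 CPM in WT and 1.08, 3.03 and 1.95 in KO tumors, did not overlap between the groups and gave 1.98 ± 0.46 (adjusted p = 0.0990). Like Gli1, it is a known target of the pathway and peaked in pancreatic KO replicate 2. The other target genes among the 9 did not peak there. Ptch1 (45.4 CPM) lay within the pancreatic WT range of 36.9 to 61.4 CPM, and Hhip was at 0.022 CPM. That tumor had the most fibroblast, chondrocyte and endothelial marker RNA in that tissue, and the part of these cells was not tested. Among the 47 other pathway genes, Dhh, Bcl2 and Lrp2 also did not overlap between the groups. The share of all genes without overlap was not counted, so these cases are a description only. Bcl2, an inhibitor of cell death, had a mean of 12.6 CPM in KO and 7.43 in WT tumors (0.77 ± 0.24, adjusted p = 0.170), and Lrp2 one of 0.60 against 0.98 (-0.69 ± 0.30, adjusted p = 0.317). Mycn, Bcl2 and Lrp2 were named after their values were seen. Sufu was at 0.24 ± 0.16 (adjusted p = 0.498).

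Genes whose level rose and fell with Gli1 and with Shh within groups were listed by Pearson's r of their log2 CPM as deviations from the group means, over 13 tumors and 15868 protein-coding genes. For Gli1 the closest were Mme (r = 0.957), Mtus1 (0.941), Smarcd3 (0.921), Dnah2 (0.919) and Slc9a9 (0.905). For Shh they included Klhl18 (0.934), Rufy1 (0.922), Pou4f1 (0.922) and Gbp8 (0.916), but Shh held 1 to 30 counts per tumor, counts too sparse to read anything from its list. These values are a description of the same 13 libraries and carry no test.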

How the data were processed

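Bulk RNA sequencing of 13 tumors was used. The labels describe stranded total RNA libraries after removal of ribosomal RNA. The authors trimmed reads with Trim Galore 0.6.10, quantified them with kallisto 0.50.0 on GENCODE M23 transcripts of GRCm38 with a strand setting, summed them per gene with tximport, and deposited these estimated counts unscaled (27.29% of values not whole). Identifiers were matched to symbols, positions and lengths of GENCODE M21 (55141 of the 55332 genes with values).

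After rounding, a gene was tested in a comparison when 2 or more of its tumors held 10 or more counts, using R 4.3.3 with edgeR 4.0.16 (TMM, robust quasi-likelihood, Benjamini-Hochberg over all genes tested). Fold changes are on the log2 scale with SE. Levels are CPM with TMM factors over all 13 tumors. Each fit that compares a pair of groups was also run on simulated data, but the interaction fit was not. Alternatives were other size factors, filters, dispersions, a replicate block, DESeq2 1.42.0, 1 fit of all tumors, protein-coding genes alone, thinned counts and leaving out each tumor. Libraries differed beyond sampling noise in every pair, so none was merged. Floors of 3 counts and limits from depth cover counting error only.

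The 9 genes, the 47 other pathway genes and the marker lists were chosen with earlier results of these data known. Of the other pathway genes, Dhh and Sufu are always named, and in each comparison up to 8 of those called with the smallest adjusted p. Scube1, Foxf1, Foxf2, Lrp2, Ccnd1 between KO tumors, Mycn, Bcl2 and the genes near Hhip are named after their values were seen. Results for a few genes are not reported here.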

Additional observations from a re-analysis of the deposited data

Results flagged for a closer look

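Of 46 groups of 4 WT tumors looked at (23 genes), 4 held a tumor set apart from the other 3 by Dixon's criterion, where chance gives about 1 in 20. Hhip had its highest oral WT value in replicate 4, at 8.62 CPM against 0.11 to 0.76 in the others. Foxa2 had 0.023 CPM in oral WT replicate 4 and 0 in the others, which is a single count. Gpr161 had 14.1 CPM in pancreatic WT replicate 4 against 7.82 to 8.72 in the others. Prkar1a had 299 CPM in oral WT replicate 3 against 218 to 229 in the others.

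The effect of Sox2 loss differed between the tissues for both protein kinase A subunits by the interaction term (edgeR quasi-likelihood test, adjusted). These were the 2 calls among 47 other pathway genes, where 12.3% of 25836 genes were called (7.41% positive and 4.85% negative). That is no excess over all genes, and protein-coding genes as a whole had a median interaction of -0.28. For Prkaca the interaction was -1.10 (SE 0.19, adjusted p = 0.00861), from -1.02 in oral tumors and 0.02 in pancreatic tumors. Both oral KO tumors lay below all 4 oral WT tumors, while the pancreatic groups overlapped at 113 to 142 CPM. For Prkar1a the interaction was -1.03 (SE 0.24, adjusted p = 0.0192), from -0.56 in oral and 0.41 in pancreatic tumors, neither of which was called on its own. The interaction was called under 17 of 21 alternatives for Prkaca and 13 of 21 for Prkar1a.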

How the results depend on the processing

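Over the member genes, 667 of 702 values under an alternative kept their direction and side of the threshold, 18 changed sign, 10 became called and 7 lost a call. Among the 9 genes, 1 was called on Sox2 loss in oral tumors in the fit of all 13 tumors (Hhip) and 1 in pancreatic tumors with DESeq2 (Gli1), and 1 in place of 3 between KO tumors without oral KO replicate 2 (Gli3). Of the other pathway genes, the 2 calls on Sox2 loss in oral tumors became 1 with at least 10 counts in every tumor or without robust estimation, 0 with the tumor number as a block, with protein-coding genes alone or with thinned counts, 5 with DESeq2, and 0 to 2 on leaving out a tumor. In pancreatic tumors there was 1 with the block and 2 with DESeq2 in place of 0. Between KO tumors the 10 calls became 6 without pancreatic KO replicate 1 and 6 to 11 over all tumors left out.

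Each change of sign was of a value that was not called. In oral KO against WT they were Gli1 without KO replicate 1 (leaving out a tumor gave -0.99 to 1.13), Gli2 with protein-coding genes alone (0.033) and without WT replicate 2 or KO replicate 1 (-0.66 to 0.21), and Hhip without KO replicate 2 (-0.83 to 10.24). Dhh, at -0.00, became 0.11 with at least 10 counts in every tumor, 0.85 with the block, 0.19 with protein-coding genes alone, and was -0.32 to 0.23 on leaving out a tumor, positive without WT replicate 1, 3 or 4 or KO replicate 1. In pancreatic KO against WT they were Ihh without WT replicate 1 (-1.61 to 0.79 on leaving out a tumor), Ptch1 without KO replicate 1 (-0.34 to 0.017), Hhip without KO replicate 2 or 3 (-0.59 to 0.25), and Boc without WT replicate 2 or KO replicate 1 (-0.29 to 0.16). Between KO tumors they were Smo with protein-coding genes alone (0.047), Gli1 without oral KO replicate 1 (-0.56 to 1.51), and Sufu (0.046 with protein-coding genes alone, 0.012 with thinned counts). In the interaction they were Ihh without pancreatic WT replicate 1 (-0.30 to 2.32), Smo (0.074 with at least 10 counts in every tumor, 0.088 with protein-coding genes alone, 0.015 with thinned counts) and Hhip without oral KO replicate 2 (-0.76 to 10.35). The cause was not tested.

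Calls over all genes moved by more than 1.5 times. On Sox2 loss in oral tumors the 2614 calls became 65 with the block, 4004 with DESeq2, 5082 in 1 fit of all tumors, 27 with protein-coding genes alone, and 36 to 2616 on leaving out a tumor. In pancreatic tumors 155 became 239 without a filter, 75 with the stricter filter, 590 with the block, 1115 with DESeq2, 92 in 1 fit, 10 with protein-coding genes alone, and 43 to 269. Between WT tumors 3832 became 2431 with the stricter filter and otherwise lay between 2821 and 4483. Between KO tumors 6252 became 3697 with the block and 2869 with protein-coding genes alone, and 3241 to 4988 on leaving out a tumor. For the interaction 3168 became 1458 with the block, 791 with protein-coding genes alone, 1852 with thinned counts, and 1510 to 4162. DESeq2 gave no adjusted p for Hhip in either KO comparison or the interaction.

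Tumors of the same number shared only the number. Their deviations correlated at -0.14 and -0.09 in oral, 0.43, 0.04 and -0.04 in pancreatic, -0.19 to -0.01 in WT and -0.02 and 0.02 in KO pairs. Only 2 oral KO tumors were at hand, one with the smallest library and the other with 982 CPM of Hhip, and Shh, Ihh and pancreatic Hhip lay close to the counting floor.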

Other observations

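In oral KO replicate 2, another 4 of the 23 genes that exceeded every other tumor by more than 10-fold lie together on chromosome 10 within 754.6 kb. They are Nts (3179 CPM against at most 193), Rassf9 (271 against 22.1), Alx1 (227 against 15.5) and Lrriq1 (128 against 6.39). They were looked at after their values were seen, and no test was run.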
